A study of Homo sapiens with 9 samples.

Results

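The cytosolic heat shock chaperones described here are 10 human genes chosen by name: HSPH1, HSPA4, HSPA8, DNAJA1, DNAJB1, DNAJB4, BAG3, HSPB8, CRYAB and HSF1. The choice was made with earlier results of these data known. Each gene was read, where possible, from a probe set that names that gene alone. Of the 10 genes, 8 were measured in this way among 14207 genes on the arrays. HSPB8 and CRYAB lay only on probe sets that also name other genes, and their values are given apart from the rest. The RNA came from ARPE-19, an established retinal pigment epithelial line, in 3 groups of 3 arrays: vehicle, 100 µg/ml cigarette smoke condensate and 250 µg/ml condensate. Cells of every group were grown to confluence in serum and then kept in medium with albumin, and the condensate was a commercial DMSO stock diluted in medium. How long the cells were exposed is not stated in the labels. Arrays carry the numbers 1 to 3 within a group, and nothing says that they are separate cultures. The p-values therefore cover the spread between arrays only, which may be technical.

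Heat shock chaperones bind unfolded stretches of protein in the cytosol and nucleus. HSP70 proteins bind and release such stretches in a cycle driven by ATP, J-domain proteins bring clients and start hydrolysis, and exchange factors of the HSP110 and BAG families release the nucleotide and the client. Small heat shock proteins hold aggregating proteins until HSP70 can act. HSF1 is the transcription factor that switches these genes on when unfolded protein builds up, largely through activation of protein already in the cell. In the retinal pigment epithelium, which lives under high light and oxygen, this system is known as part of the defence against damaged protein.

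All values are deposited log2 values. At both doses the means of HSPH1 and HSPA4, which encode HSP110 proteins, and of HSF1 were higher than in vehicle cells, by 0.55 to 0.83 log2 units, with every treated array above every vehicle array. None of the 8 genes passed the threshold of 0.05 on p-values adjusted over all genes, at either dose or between the doses. The closest was HSPH1 at 250 µg/ml, 1.78 times the vehicle level with a limma adjusted p of 0.066. HSPA8, DNAJA1, DNAJB1, DNAJB4 and BAG3 overlapped between treated and vehicle arrays. Heat-inducible genes lay on both sides, with DNAJB1 and BAG3 among these 5 and HSPH1 among the genes without overlap.

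**Figure D1:**
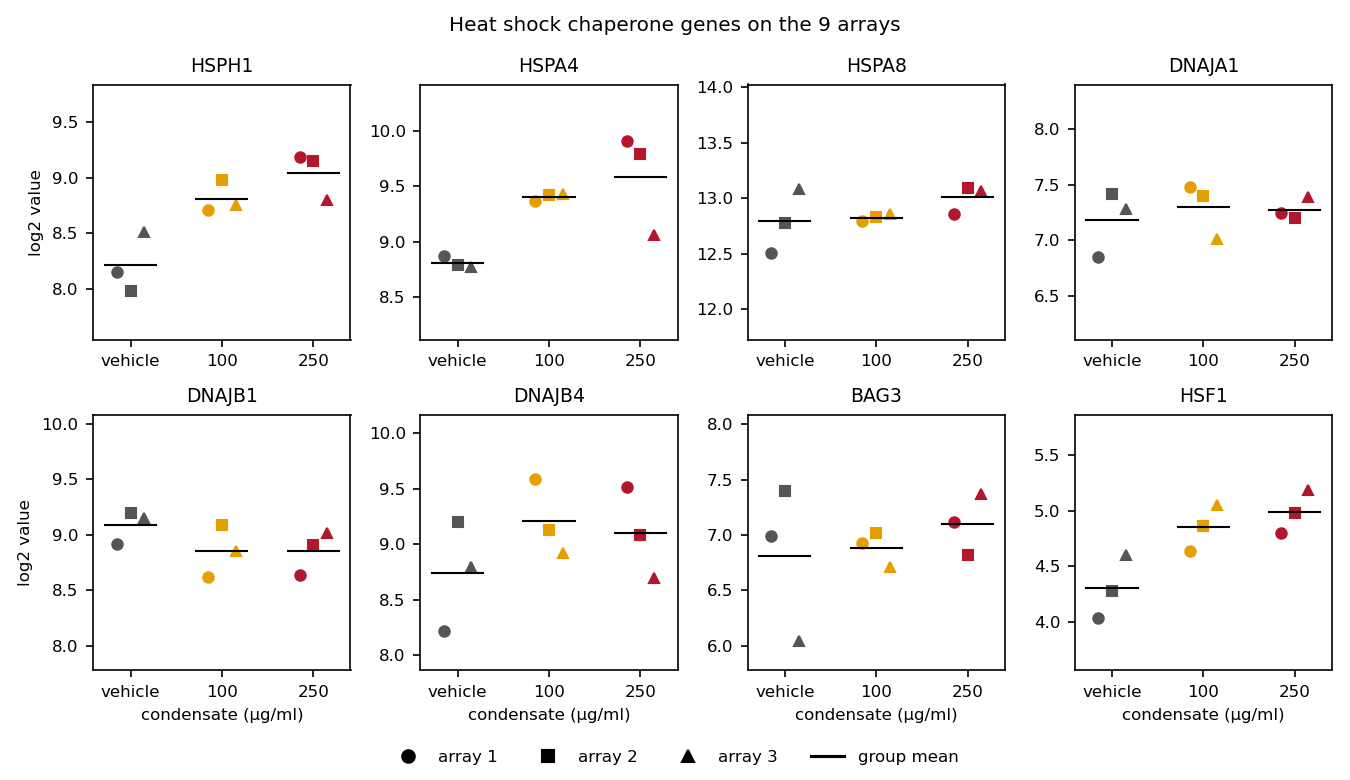
Deposited log2 values of the 8 singly measured genes on each array (y axis, 1 panel per gene, each spanning 2.3 log2 units) by condensate concentration (x axis). Symbols give the array number in the labels and lines the group means of 3 arrays. HSPH1, HSPA4 and HSF1 have all 6 treated arrays above all 3 vehicle arrays, while the other 5 overlap.

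HSPH1 encodes HSP105, an HSP110 protein that acts as nucleotide exchange factor for HSP70. Its vehicle arrays 1, 2 and 3 read 8.14, 7.98 and 8.51. The arrays at 100 µg/ml read 8.70, 8.98 and 8.75, and those at 250 µg/ml 9.18, 9.15 and 8.80. Every treated array lay above every vehicle array, with vehicle array 3 the closest. The change was 0.60 ± 0.17 log2 units at 100 µg/ml (SE, n = 3 per group, limma adjusted p = 0.21) and 0.83 ± 0.17 at 250 µg/ml (limma adjusted p = 0.066). Without control replicate 3 the change at 250 µg/ml was 0.98 and passed (limma adjusted p = 0.032), and with array weights it was 0.87 and passed (0.045).

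HSPA4 encodes APG-2, the other HSP110 protein among the members, which works with HSC70 and J-domain proteins in pulling apart aggregates. Its vehicle arrays lay close together at 8.87, 8.79 and 8.77, as did those at 100 µg/ml at 9.37, 9.42 and 9.43. At 250 µg/ml arrays 1 and 2 read 9.91 and 9.79 and array 3 only 9.06. Array 3 at 250 µg/ml therefore lay below all arrays at 100 µg/ml and above all vehicle arrays. The change was 0.60 ± 0.20 at 100 µg/ml (limma adjusted p = 0.26) and 0.78 ± 0.20 at 250 µg/ml (0.12). Without CSC_250 replicate 3 the change at 250 µg/ml was 1.04 and passed (limma adjusted p = 0.024). The result without the arrays numbered 3 of both doses was also 1.04 (0.021).

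HSF1, the heat shock transcription factor itself, read 4.03, 4.27 and 4.60 on the vehicle arrays. At 100 µg/ml it read 4.63, 4.86 and 5.05, and at 250 µg/ml 4.79, 4.98 and 5.19. The groups did not overlap, but vehicle array 3 and array 1 at 100 µg/ml were almost level. The change was 0.55 ± 0.18 at 100 µg/ml (limma adjusted p = 0.26) and 0.69 ± 0.18 at 250 µg/ml (0.12). In each of the 3 groups array 1 read lowest and array 3 highest. With the array number as a replicate block the change at 250 µg/ml passed (limma adjusted p = 0.038), although the numbers were not found to pair treated arrays with vehicle arrays. HSF1 lay near the medians of the arrays (4.42 to 4.59), a range where RMA compresses fold changes.

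HSPA8 encodes HSC70, the constitutive cytosolic HSP70. It read 12.51, 12.78 and 13.08 on the vehicle arrays, 12.79, 12.83 and 12.85 at 100 µg/ml and 12.86, 13.09 and 13.06 at 250 µg/ml. The vehicle arrays spanned the whole range of those at 100 µg/ml. Its change was 0.03 ± 0.15 at 100 µg/ml (95% interval -0.31 to 0.37) and 0.21 ± 0.15 at 250 µg/ml (-0.12 to 0.55). HSPA8 was the 1 member whose arrays did not overlap between the doses, with array 1 at 250 µg/ml just above the highest array at 100 µg/ml. HSPA8 has processed pseudogenes and close relatives, and whether their transcripts reach its probes was not tested.

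DNAJA1, a J-domain partner of HSC70 in folding and import, read 6.85, 7.42 and 7.29 on the vehicle arrays, 7.48, 7.40 and 7.01 at 100 µg/ml and 7.24, 7.20 and 7.39 at 250 µg/ml. All groups overlapped. The change was 0.11 ± 0.18 and 0.09 ± 0.18 at the lower and higher dose (95% intervals -0.29 to 0.52 and -0.31 to 0.50). Both changes turned negative without control replicate 1, the low vehicle array, to -0.05 and -0.08.

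DNAJB1 encodes HSP40, the J-domain protein most used as a readout of HSF1 activity. It read 8.91, 9.19 and 9.15 on the vehicle arrays, 8.62, 9.09 and 8.85 at 100 µg/ml and 8.64, 8.91 and 9.01 at 250 µg/ml. It was the 1 member of the 8 with a mean below vehicle at both doses, by 0.23 ± 0.16 log2 units each time, and the arrays overlapped (limma adjusted p = 0.52 and 0.49). The 95% interval was -0.59 to 0.13 at 100 µg/ml and much the same at 250 µg/ml. The estimates for HSPH1 lie above these intervals, which cover only the spread between arrays.

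DNAJB4, a close relative of DNAJB1, varied more between arrays of a group. It read 8.22, 9.20 and 8.80 on the vehicle arrays, 9.59, 9.13 and 8.92 at 100 µg/ml and 9.52, 9.08 and 8.70 at 250 µg/ml. At both doses array 1 was highest and array 3 lowest, while vehicle array 1 was the lowest of all 9. The change was 0.47 ± 0.30 and 0.36 ± 0.30 (limma adjusted p = 0.49 and 0.57). Leaving out control replicate 1 lowered these changes to 0.215 and 0.101, and leaving out control replicate 2 raised them to 0.704 and 0.59. The change at 100 µg/ml was 0.285 without CSC_100 replicate 1, and that at 250 µg/ml was 0.152 without CSC_250 replicate 1 and 0.56 without CSC_250 replicate 3. Its intervals (-0.21 to 1.16 and -0.32 to 1.04) hold both 0 and the change of HSPH1.

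BAG3 encodes an exchange factor that links HSP70 to small heat shock proteins and to selective autophagy. It read 6.99, 7.40 and 6.04 on the vehicle arrays, 6.93, 7.02 and 6.71 at 100 µg/ml and 7.12, 6.82 and 7.37 at 250 µg/ml. Vehicle array 3 lay below every other array and vehicle array 2 above every other. The change was 0.08 ± 0.31 and 0.29 ± 0.31 (limma adjusted p = 0.94 and 0.67). Without control replicate 3 both values were negative, at -0.31 and -0.09.

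**Figure D2:**
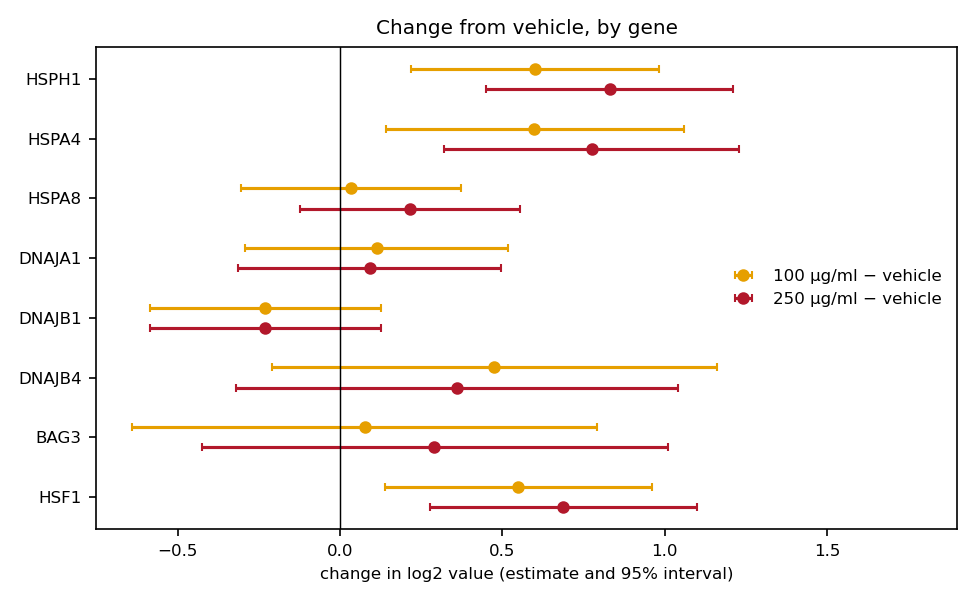
Change from vehicle in log2 units (x axis) for each of the 8 genes (y axis), as the limma estimate with its unadjusted 95% interval from 3 arrays per group. The intervals of HSPH1, HSPA4 and HSF1 lie above 0 at both doses, and those of the other 5 genes include 0.

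Read against all genes, 3 of the 8 members (HSPH1, HSPA4 and HSF1) had treated arrays wholly above vehicle arrays at each dose, where 6.41% of all genes did so at 100 µg/ml and 8.61% at 250 µg/ml. The same 3 had an unadjusted p under 0.05 at both doses in the upward direction, as had 7% and 8.74% of all genes. At the adjusted threshold 0 of the 8 were called at 100 µg/ml and 0 at 250 µg/ml, against 0.0633% and 0.549% of all genes. The median change of the members was 0.29 at 100 µg/ml and 0.33 at 250 µg/ml, beside medians of -0.05 and -0.04 over all genes. In both comparisons 7 of 8 members had a mean above vehicle, which was so of 40.8% and 42.7% of all genes. HSPB8 and CRYAB are not among the 8, and the probe sets they share with other genes had means below vehicle at both doses. The members were mostly bright. By mean level HSF1 lay at percentile 51 of all genes and the other members at 78 (BAG3) or higher. Without the dimmest 1/3 of genes the all-gene medians were 0.01 at 100 µg/ml and 0.04 at 250 µg/ml. Both comparisons share the vehicle arrays. The members were chosen with earlier results of these data known, so the shares of all genes are a description and not a test. The member median at 250 µg/ml was 0.59 without control replicate 2, and at 100 µg/ml 0.17 without CSC_100 replicate 1 and 0.19 without control replicate 1.

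Raising the dose from 100 to 250 µg/ml was compared directly. The change ran from -0.11 for DNAJB4 to 0.23 ± 0.17 for HSPH1, with a member median of 0.16 (0.084 without CSC_250 replicate 3) and an all-gene median of 0.01. The change of HSPH1 was 0.354 without CSC_250 replicate 3. HSPA4 had a change of 0.18 ± 0.20, which was 0.016, 0.077 and 0.44 without CSC_250 replicates 1, 2 and 3. HSF1 had one of 0.14 ± 0.18, which was 0.030 and 0.24 without CSC_100 replicates 1 and 3 and 0.24 and 0.038 without CSC_250 replicates 1 and 3. By limma 0 members passed at the adjusted threshold and 0 at an unadjusted p under 0.05, beside 0% and 1.84% of all genes. Arrays did not overlap for 1 member, HSPA8, in the upward direction, beside 3.32% of all genes. The 95% intervals of these differences ran from -0.15 to 0.61 for HSPH1 and from -0.28 to 0.64 for HSPA4. Same-numbered arrays of both doses varied alike, a pairing read from the data that the labels do not state and the main fits did not use. The replicate block changed no call between the doses.

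With dose as a single numeric term over all 9 arrays, HSPH1 had a slope of 0.32 ± 0.07 log2 units per 100 µg/ml (limma adjusted p = 0.14). HSPA4 had a slope of 0.30 ± 0.09 (0.20) and HSF1 one of 0.26 ± 0.08 (0.21). The other slopes lay between -0.09 for DNAJB1 and 0.13 for DNAJB4. At the adjusted threshold 0 members and 0.113% of all genes were called. Leaving out CSC_250 replicate 3 gave HSPA4 a slope of 0.42 that passed (limma adjusted p = 0.023), and array weights gave HSPH1 one of 0.30 that passed (0.046).

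The members did not vary as a single unit across the 9 arrays. HSPH1 and HSPA4 had a Pearson r of 0.88, HSPH1 and HSF1 0.79 and HSPA8 and HSF1 0.73. DNAJB1 had an r of -0.67 with HSPA4 and of -0.48 with HSPH1. These correlations describe 9 arrays that share dose groups and normalization.

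The promoters of the members were read for heat shock elements, the inverted repeats of the letters GAA that HSF1 trimers bind. The windows hold 250 bases before and 50 after each RefSeq gene start of assembly GRCh38.p14, and 8 of the 10 genes matched, with 11 windows in all. CRYAB and HSF1 had no entry. The motif of 3 units was GAA, any 2 bases, TTC, any 2 bases and GAA, or its reverse complement, which starts and ends with TTC, so that both strands were searched. It was found in 2 members, HSPA8 and DNAJA1. Of 35116 windows in the table, 0.49% held it. The shorter motif of 2 units was GAA and TTC in either order with any 2 bases between. Each order is its own reverse complement, and every longer match contains both. It was found in 5 members: HSPA8, DNAJA1, DNAJB1, DNAJB4 and HSPB8. It was present in 13.49% of all windows. In both searches members were counted by gene, with a match in any window, while the shares are of windows. DNAJB1 has 3 windows and DNAJB4 has 2, and window 1 of each held no match. The sequences of both members with 3 units are printed with those of HSPH1, the member with the largest change, with 3-unit matches in capitals.
HSPA8: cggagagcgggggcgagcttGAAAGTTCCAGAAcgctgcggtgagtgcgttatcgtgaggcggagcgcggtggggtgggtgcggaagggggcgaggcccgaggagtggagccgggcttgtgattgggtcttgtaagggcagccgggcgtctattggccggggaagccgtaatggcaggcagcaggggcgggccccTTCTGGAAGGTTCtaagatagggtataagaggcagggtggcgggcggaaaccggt
DNAJA1: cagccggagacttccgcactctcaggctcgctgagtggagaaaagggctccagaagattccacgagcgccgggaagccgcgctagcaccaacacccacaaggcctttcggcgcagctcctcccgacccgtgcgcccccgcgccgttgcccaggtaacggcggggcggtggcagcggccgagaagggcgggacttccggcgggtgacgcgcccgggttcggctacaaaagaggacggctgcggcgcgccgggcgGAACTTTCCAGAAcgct
HSPH1: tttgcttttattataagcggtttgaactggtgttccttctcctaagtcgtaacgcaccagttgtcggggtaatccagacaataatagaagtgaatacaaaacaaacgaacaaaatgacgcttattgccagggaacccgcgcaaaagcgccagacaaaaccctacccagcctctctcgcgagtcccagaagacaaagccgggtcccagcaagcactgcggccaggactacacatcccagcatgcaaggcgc
The HSPA8 stretch is chr11:123062137-123062386 on the minus strand and ends at the base before the gene start. Its matches lie at bases -230 to -218 and -55 to -43. The DNAJA1 stretch is chr9:33025023-33025292 on the plus strand, and its match lies at bases 4 to 16 of the transcript. The HSPH1 stretch is chr13:31162389-31162638 on the minus strand, again up to the base before the start. Neither motif was found in the windows of HSPH1, HSPA4 and BAG3. A match is a description of letters, and elements outside these windows were not searched. Units that depart from GAA or TTC, and spacings other than 2 bases, were not searched either.

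The small heat shock proteins among the 10 genes could not be read alone. HSPB8, the partner of BAG3, lay on a probe set that also names PDAP1. That probe set read 7.79, 7.88 and 7.78 on the vehicle arrays, 6.86, 6.93 and 6.61 at 100 µg/ml and 7.39, 6.94 and 6.76 at 250 µg/ml. All 6 treated arrays lay below the 3 vehicle arrays. The share of all probe sets or genes that did so is not given, here or for CRYAB, HSPA2 and HSPB1. In a fit over all 17629 probe sets, chosen after these values were seen, the change was -1.02 ± 0.17 at 100 µg/ml (limma adjusted p = 0.12) and -0.79 ± 0.17 at 250 µg/ml (0.078). Which of both genes the signal comes from cannot be told apart.

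CRYAB, which encodes the small heat shock protein alpha-B crystallin, shared its probe set with FDXACB1 and ALG9. It read 12.33, 12.29 and 12.02 on the vehicle arrays, 11.65, 11.82 and 12.00 at 100 µg/ml and 11.86, 11.87 and 12.07 at 250 µg/ml. The arrays at 100 µg/ml lay below all vehicle arrays, and array 3 at 250 µg/ml lay above vehicle array 3. The changes were -0.39 ± 0.13 and -0.28 ± 0.13 (limma adjusted p = 0.27 and 0.34).

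The stress-inducible HSP70 genes HSPA1A and HSPA1B, near-identical neighbours that are no members, shared both of their probe sets and were looked up after the other values were seen. One probe set read 9.27, 9.41 and 8.61 in vehicle, 9.21, 8.34 and 8.93 at 100 µg/ml and 8.58, 7.73 and 9.26 at 250 µg/ml. The other read 7.55, 8.26 and 7.23, then 6.71, 6.97 and 7.34, then 6.67, 6.72 and 7.95. Treated and vehicle arrays overlapped on both, and at 250 µg/ml array 3 was the highest on both. The changes at 250 µg/ml were -0.57 ± 0.40 and -0.57 ± 0.39 (limma adjusted p = 0.50 and 0.49). The strictly inducible HSPA6 and its relative HSPA7 shared a probe set that stayed between 3.46 and 3.84 on all 9 arrays.

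**Figure D3:**
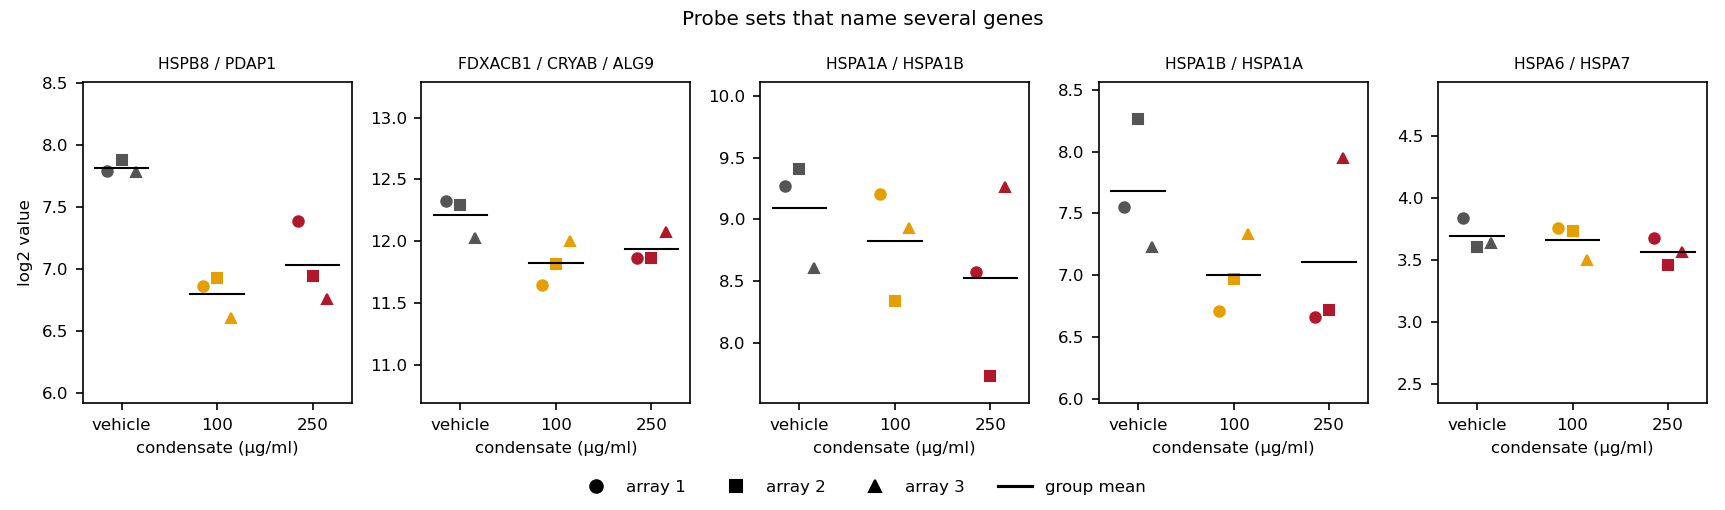
Deposited log2 values (y axis, each panel spanning 2.6 log2 units) of 5 probe sets that name several heat shock or other genes, by condensate concentration (x axis). Symbols give the array number and lines the means of 3 arrays. The probe set naming HSPB8 and PDAP1 is the 1 of the 5 with all treated arrays below all vehicle arrays.

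The wider cytosolic chaperone system was described through 7 lists holding 87 other genes, of which 62 were measured alone. These lists too were made with earlier results of these data known. At 250 µg/ml 1 of the 62 rose and 1 fell at the adjusted threshold, beside 0.387% and 0.162% of all genes, and at 100 µg/ml 0 passed by limma. At an unadjusted p under 0.05, 11 of the 62 were higher and 6 lower at 100 µg/ml, beside 7% and 7.65% of all genes. At 250 µg/ml 11 were higher and 5 lower, beside 8.74% and 7.9% of all genes. Their median change was 0.05 at 100 µg/ml and 0.09 at 250 µg/ml, between that of all genes and that of the 8 members.

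Both calls were in the list of HSP70s, HSP110s and exchange factors, with 12 measured genes and a median of 0.12 at 250 µg/ml. HSPA12A, a distant HSP70 relative, read 4.22, 4.09 and 3.96 in vehicle, 4.61, 4.75 and 4.64 at 100 µg/ml and 4.95, 5.23 and 5.26 at 250 µg/ml. The 3 groups were fully separated in order of dose. The vehicle arrays of HSPA12A lay below the medians of all arrays (4.42 to 4.59), and its mean over all arrays was 4.63. At 250 µg/ml it rose 2.08-fold, by 1.06 ± 0.12 (limma adjusted p = 0.013), and its slope over dose was 0.42 ± 0.05 per 100 µg/ml (0.018). The change at 100 µg/ml was 0.58 ± 0.12 (0.16). The call at 250 µg/ml ended without CSC_250 replicate 2 (0.10) and with only the 6 arrays compared (0.090). The slope call ended without control replicates 1, 2 or 3 (0.063, 0.080 and 0.066), without CSC_100 replicate 1 (0.052) or CSC_250 replicate 2 (0.16), without the arrays numbered 3 (0.069) and with the replicate block (0.060).

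HSPA2, an HSP70 known for its role in sperm development, read 6.53, 6.96 and 6.58 in vehicle, 5.98, 5.80 and 5.62 at 100 µg/ml and 5.25, 5.58 and 5.67 at 250 µg/ml. All treated arrays lay below all vehicle arrays. At 250 µg/ml it fell by 1.19 (SE 0.17, limma adjusted p = 0.030), which is 2.28-fold lower, and at 100 µg/ml its change was -0.89 ± 0.17 (0.14). The call ended without control replicate 2 (0.051), CSC_100 replicates 1 or 2 (0.062 and 0.068), CSC_250 replicates 1 or 2 (0.11 and 0.13), and with only the 6 arrays compared (0.094).

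In the same list HSPA4L, a further HSP110 gene named after its values were seen, read 7.24, 7.02 and 7.76 in vehicle, 8.02, 8.12 and 8.10 at 100 µg/ml and 8.60, 8.54 and 7.51 at 250 µg/ml. As for HSPA4, array 3 was the lowest at 250 µg/ml, and here it lay below vehicle array 3. The changes were 0.74 ± 0.30 (limma adjusted p = 0.31) and 0.87 ± 0.30 (0.21). HSPA14, in this list and also named after its values were seen, had changes of 0.88 ± 0.20 (0.19) and 0.91 ± 0.20 (0.083). Of the 12 genes of the list, 7 had means above vehicle and 5 below at 250 µg/ml.

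In the other 6 lists 0 genes passed at either dose. Of 12 J-domain partners, the median change was 0.01 at 250 µg/ml, and the genes with the smallest p went opposite ways. DNAJC21, a ribosome-associated J-domain protein, had a change of 1.13 ± 0.26 (limma adjusted p = 0.087) and DNAJC12 one of -0.62 ± 0.14 (0.086). DNAJC12 had a mean of 3.28, below the array medians, and DNAJC21 one of 6.56. The 10 HSP90s and co-chaperones had a median of 0.20, with TOMM34 at 0.54 ± 0.16 (0.16) and STIP1, the adaptor between HSP70 and HSP90, at 0.45 ± 0.15 (0.20). Inducible HSP90AA1 had a change of 0.66 ± 0.30 (0.31) and CHORDC1 one of 1.14 ± 0.39 (0.21), both named after their values were seen. For both genes every treated array at either dose lay above every vehicle array. In this list 3 of 10 genes had treated arrays wholly above vehicle at 100 µg/ml and 5 at 250 µg/ml, beside 6.41% and 8.61% of all genes. This was the highest count of the 7 lists at 250 µg/ml. There 3 of 12 genes did so in the HSP70 and HSP110 list and 1 of 12 J-domain partners. It was so of 1 of 14 chaperonin and prefoldin genes and 1 of 6 ubiquitin and aggregate handling genes. None of the 6 small heat shock proteins or the 2 HSF family genes did so.

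The 6 measured small heat shock proteins were the 1 list of the 7 with a negative median at 250 µg/ml, -0.09. HSPB1, which encodes HSP27, read 9.25, 9.29 and 8.94 in vehicle, 7.99, 8.36 and 8.72 at 100 µg/ml and 8.52, 8.38 and 8.95 at 250 µg/ml. Its arrays at 100 µg/ml lay below vehicle, and array 3 at 250 µg/ml lay just above vehicle array 3. The changes were -0.80 ± 0.22 (limma adjusted p = 0.21) and -0.54 ± 0.22 (0.27), and CRYAA had one of -0.31 ± 0.22 at 250 µg/ml (0.50). Of the small heat shock proteins measured alone, 1 of 6 had a mean above the array medians.

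The chaperonin and prefoldin list, the folding chamber for actin and tubulin and its feeder, had a median of 0.18 over 14 genes at 250 µg/ml. CCT6B had a change of -0.25 ± 0.10 (limma adjusted p = 0.28) and CCT6A one of 0.47 ± 0.21 (0.31). CCT6B had a mean of 3.27, below the array medians, and 11 of the 14 genes had means above vehicle. Of the ubiquitin and aggregate handling genes, with a median of 0.28 over 6, UBQLN2 had a change of 0.37 ± 0.14 (0.24) and VCP one of 0.46 ± 0.20 (0.31). Of the HSF family 2 genes were measured alone. HSF4 had a change of 0.07 ± 0.15 and the HSF1-binding protein gene HSBP1 one of 0.10 ± 0.36 (0.84 and 0.90).

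**Figure D4:**
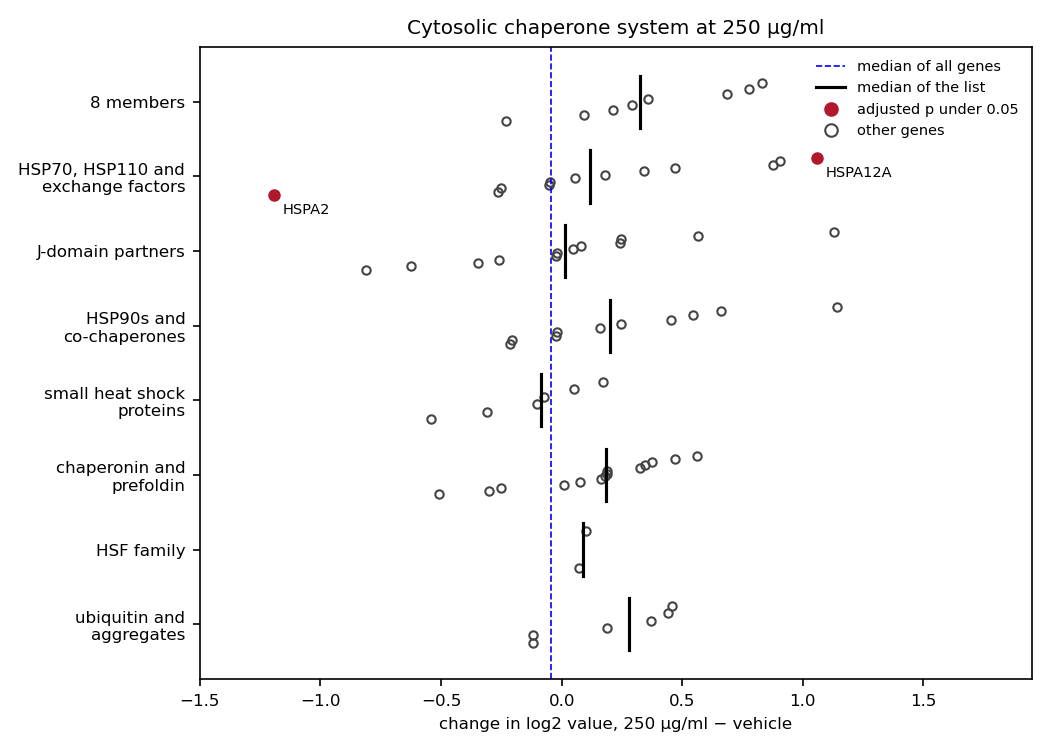
Change in log2 units at 250 µg/ml against vehicle (x axis) for the 8 members and the 62 measured genes of 7 chaperone lists (y axis), each point 1 gene as the mean of 3 arrays minus the mean of 3. Short lines are list medians, the dashed line is the median of all 14207 genes (-0.04), and filled points are HSPA12A and HSPA2, which passed at an adjusted p under 0.05.

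The cell line and the state of the cultures were checked with marker lists. Of 16 retinal pigment epithelium markers 8 had means above the array medians, KRT8, OTX2 and MITF among them, while RPE65, RLBP1 and BEST1 stayed between 2.33 and 3.51 on all arrays. Of the 16, 14 had means below vehicle at 100 µg/ml and 12 at 250 µg/ml, with median changes of -0.20 and -0.27, and 0 passed by limma at the adjusted threshold (3 and 2 were lower at an unadjusted p under 0.05). Their mean per array ran from 5.25 to 5.64 in vehicle, from 5.07 to 5.27 at the lower dose and from 5.07 to 5.30 at the higher one. Endothelial, blood, photoreceptor and glial markers lay at or below the array medians (0 of 15 above). The fibroblast marker COL1A1 read 6.55 on vehicle array 2 and 3.50 to 3.75 on the other 8. Of 7 fibroblast markers 1, PDGFRB, had a mean above the array medians. It read 8.30, 8.41 and 6.88 in vehicle, 6.17, 6.18 and 8.23 at 100 µg/ml and 6.24, 6.57 and 7.81 at 250 µg/ml. The mean of 7 proliferation markers ran from 6.91 to 7.58 over the vehicle arrays. The arrays given 100 µg/ml spanned 7.94 to 8.32 and those given 250 µg/ml 7.43 to 7.54. Above the vehicle mean lay 7 of the 7 at 100 µg/ml and 5 at 250 µg/ml. The part of these markers in the chaperone values was not tested. In bulk RNA a change in the make-up of the culture and a change per cell cannot be told apart.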

How the data were processed

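Total RNA was hybridised to whole-transcript exon arrays, 1 per sample. The deposited values are log2 summaries per probe set. Per the submitters' processing notes the tools were Partek and RMA and the build hg18, with no version, setting or filter stated there. RMA normalizes arrays together, so a change in total RNA per cell is not visible.

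Of 17629 probe sets 14378 name 1 gene by the platform annotation, with symbols updated by gene number through RefSeq (assembly GRCh38.p14, which did not hold 28 of the numbers). For 169 genes with several probe sets the one with the highest mean was used, which left 14207 genes. All 9 arrays entered a linear model in limma 3.58.1 (R 4.3.3) with either a mean for each group or dose as a numeric term, and p-values were adjusted over all genes by Benjamini-Hochberg (threshold 0.05). Intervals are 95% from the moderated t distribution. The fits were tested on simulated data. The members and lists were chosen with earlier results of these data known.

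The genes named are the 10 members whatever their values, list genes that passed, and in lists where none passed the pair with the smallest p at 250 µg/ml. Other genes are named after their values were seen. For the members HSPH1 and DNAJB1 the 5 most similar genes were also taken. Deviations from group means correlated at 0.44 to 0.68 between same-numbered arrays of the doses, so the pairing is read from the data. Against vehicle these correlations ran from -0.14 to 0.265 at 100 µg/ml and from -0.09 to 0.226 at 250 µg/ml. The alternatives tried were 2 scalings, a filter on dim genes, other variance models, the replicate block, other probe set summaries and leaving out arrays. The number of arrays limits the precision.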

Additional observations from a re-analysis of the deposited data

How the results depend on the processing

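Over the 32 member results (8 genes in 4 tests) 568 alternative values were computed. Of these 560 were not called, 8 were called and 17 changed sign. The count of members called at 250 µg/ml was 1 in place of 0 with the replicate block (HSF1), with array weights (HSPH1) and with array 3 of either dose left out together (HSPA4), and 0 to 1 with single arrays left out. The count for the dose slope was 1 with array weights and without the arrays numbered 3, and 0 to 1 with single arrays left out. No member was called at 100 µg/ml or between the doses under any setting run. The member median at 250 µg/ml lay between 0.24 and 0.59 when any 1 array was omitted. The replicate block changed no other member call. Sign changes, all of uncalled values, were seen with quantile normalization for BAG3 at 100 µg/ml (-0.0065) and DNAJB1 between doses (0.019), and without the arrays numbered 3 for BAG3 between doses (-0.0069). When 1 array was omitted, the ranges that crossed 0 at 100 µg/ml were -0.11 to 0.18 for HSPA8, -0.054 to 0.25 for DNAJA1 and -0.31 to 0.37 for BAG3. At 250 µg/ml they were -0.076 to 0.21 for DNAJA1 and -0.092 to 0.58 for BAG3. Between doses they were -0.16 to 0.071 for DNAJA1, -0.12 to 0.12 for DNAJB1 and -0.32 to 0.086 for DNAJB4. For the slope they were -0.027 to 0.066 for DNAJA1 and -0.0051 to 0.22 for BAG3. The cause was not tested.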

Other observations

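The genes whose values ran most like those of HSPH1 over the 9 arrays, by Pearson r among all 14207 genes, were DPF1 (0.991), AP4B1 (0.988), the proteasome subunit gene PSMD11 (0.986), the DNA repair nuclease gene ERCC4 (0.985) and the splicing factor gene PLRG1 (0.982). For DNAJB1 they were the splicing protein gene SNRPF (0.966), the mRNA decapping gene DCPS (0.931), MOSMO (0.929), PWWP3A (0.929) and PIH1D1 (0.925). These are the highest of many correlations over 9 arrays and carry no test.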
